A study of Mus musculus with 23 samples.

Results

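Transcript levels of the mouse prefrontal cortex were compared 18 h after 4T-1 cells, a mouse mammary carcinoma line, or phosphate-buffered saline (PBS) alone had been injected under the skin. The mice were Balb/c females aged 8 weeks. The tumour group received 100000 4T-1 cells in 100 µl PBS and the control group received 100 µl PBS, so that both groups shared the injection and its vehicle and were killed by decapitation at the same time. The comparison rested on 6 of the 23 arrays of the series, chosen by their titles: total RNA, 18 h, and replicate 4, 5 or 6. Each of these 3 replicates was hybridised as a dye swap on 2 in-house printed oligonucleotide arrays, once with tumour RNA labelled with Cy5 and once with Cy3, against PBS RNA in the other dye. Other arrays of the series cover 72 h and 192 h after the injection, and 9 arrays of poly A RNA, some of them also of 18 h, were not used here. The sources used here do not say how many mice gave the RNA of a replicate. The spread behind the p-values was estimated from all 7 swap replicates of 18 h, 72 h and 192 h and moderated over all oligos, and it may be partly technical. Each SE below comes from that fit and not from the 3 values of a gene alone, while n counts its 18 h replicates.

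The prefrontal cortex takes part in the control of stress, mood and motivated behaviour, and its neurons carry receptors for stress hormones. A disturbance in the periphery can reach the brain through cytokines in the blood, through afferent nerves, through the vessel wall and through glucocorticoids released by the adrenal cortex. Known responses of brain tissue to such signals include interferon and NF-kB target genes, glucocorticoid-induced genes such as Fkbp5, and activity-regulated transcription factors such as Fos. The question addressed by the samples was whether transcript levels in this region differ so soon after tumour cells were placed under the skin.

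Each value below is a log2 ratio of tumour over PBS, so that 0 means equal signals and 1 means a doubling. The direction is assumed and not settled, because it rests on reading scanner channel B as Cy5. That reading in turn takes the authors' log ratios as tumour over PBS. On the 6 arrays, 2784 to 8717 of 10080 spots gave a usable ratio. The array of replicate 5 with tumour RNA in Cy3 had the fewest. On the array of replicate 6 with tumour RNA in Cy3, the third scan stood apart from the others before normalization (median raw log2 ratio of channel B over A 1.31, against -0.52 and -0.51). The arrays of a swap were averaged into 1 replicate value, which needed a usable spot on both. It existed for 2992 oligos in replicate 4, for 2331 in replicate 5 and for 6325 in replicate 6. Of 13 genes looked for as markers of cortical tissue, 6 had an oligo. Of these, the presynaptic gene Snap25 and the excitatory neuron gene Neurod6 had a usable spot on all 6 arrays, Tbr1 on 4, and Camk2a, Gad1 and Gad2 on 3. Mbp, Gfap, Aqp4 and Slc17a7 were among those with no oligo under that symbol. In tissue RNA, fewer cells of a type and less RNA per cell cannot be told apart.

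No gene passed the test at 18 h. An oligo was tested when at least 2 of the 3 replicates had a value, which left 3442 oligos (1099 with 3 values and 2343 with 2). At an adjusted p under 0.05 limma called 0, which is 0% of the oligos tested, and the smallest adjusted p was 0.747. At an unadjusted p under 0.05, 79 oligos stood higher after tumour cells (2.3%), and 135 stood lower (3.92%). Of all oligos tested, 47.6% had a mean log2 ratio above 0. The 95% interval had a median reach of 0.32 to either side over the oligos. With median centring in place of loess, limma called 8 oligos, 1 higher (Mitd1) and 7 lower, among them Snap25, Ctnnb1, Reep5 and Dlx3. The arrays with tumour RNA in Cy3 alone gave 63 calls, all higher, and those with tumour RNA in Cy5 alone gave 0. Within arrays of 1 orientation, tumour label and dye cannot be told apart. Of the 63, 55 were also tested for the dye component described below, and 32 were called for it. Replicate 4 carried the lower side. Of the 135 lower oligos, 127 had a value in replicate 4, and in 120 of them it was the largest of the replicates in size. The same share over all oligos tested is not given here, and replicate 4 had the widest spread of the replicates. Without replicate 4, 22 oligos stood lower at this threshold, and 62 stood higher. Of the 79 higher oligos, 55 had a value there, and it was the largest in 30. The SD of the log2 ratios over oligos was 0.354 in replicate 4, 0.214 in replicate 5 and 0.221 in replicate 6.

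Genes that stood on the same side of 0 in every replicate were described next. All 3 replicates had the same sign for 287 of the 1099 oligos with 3 values (26.1%), a share close to that of unrelated signs. Of the 287, 131 were above 0 and 156 below. The 10 largest positive means ran from 0.32 to 0.59 and the 10 most negative from -0.57 to -0.39, with adjusted p-values from limma of 0.747 to 0.757. The array values of these 20 genes fell into distinct kinds, and the sign of a mean did not always come with the same sign on each array.

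On the positive side, Timp4, an inhibitor of matrix metalloproteinases, stood above 0 on all 6 arrays. Its log2 ratios were 0.51 and 1.22 in replicate 4 (tumour RNA in Cy5, then in Cy3), 0.30 and 0.28 in replicate 5, and 0.05 and 0.01 in replicate 6, with a mean of 0.40 ± 0.14 (SE, n = 3). The values were high in replicate 4 and near 0 in replicate 6. Mau2, which loads cohesin onto chromosomes, showed a similar order, with 0.69 and 0.74 in replicate 4, 0.27 and 0.32 in replicate 5, and 0.19 and -0.07 in replicate 6. Rbm19, an RNA-binding protein of ribosome assembly, was instead highest in replicate 6 (0.35 and 1.04), with 0.51 and -0.03 in replicate 4 and 0.23 and 0.16 in replicate 5. The zinc finger gene Zfp704 stood at 0.54 and 0.55 in replicate 4, at 0.16 and -0.02 in replicate 5, and at 0.32 and 0.41 in replicate 6. These 4 genes were above 0 on at least 5 arrays.

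In 5 other genes of the positive side, both arrays of every swap had opposite signs, and the mean was the small remainder of large values. For 1700003H04Rik, a gene of unassigned function, the arrays with tumour RNA in Cy5 read -2.16, -1.74 and -0.87 in replicates 4, 5 and 6, and those with tumour RNA in Cy3 read 2.84, 2.70 and 2.74. The mean of 0.59 ± 0.19 (SE, n = 3) was the highest of the group. Dbf4, the regulatory subunit of the kinase that starts DNA replication, read -1.92, -1.46 and -0.91 with tumour RNA in Cy5 and 3.47, 1.91 and 1.55 in Cy3, with a mean of 0.44 ± 0.16. Lrrc34, H2-M2, a class I major histocompatibility gene, and 1700029M20Rik showed the same alternation, with means of 0.37, 0.38 and 0.32. Over all 1099 oligos with 6 values, 188 (17.1%) had opposite signs in each of the 3 swaps. C1qtnf4, which encodes a secreted protein of the C1q and TNF related family, was mixed, at 1.53 and -0.23 in replicate 4, 0.16 and -0.16 in replicate 5, and 0.64 and 0.83 in replicate 6.

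On the negative side, all 10 genes were farthest from 0 in replicate 4, the replicate with the largest SD over oligos. On the positive side this held for 7 of 10. Ctnnb1, which encodes beta-catenin of cell junctions and Wnt signalling, read -2.12 and -0.34 in replicate 4, -0.14 and -0.01 in replicate 5, and -0.01 and -0.09 in replicate 6. Its mean of -0.45 ± 0.18 (SE, n = 3) thus rested mostly on 1 array. Polr3f, a subunit of RNA polymerase III, was more even, with -1.03 and -0.64 in replicate 4, -0.19 and -0.29 in replicate 5, and -0.48 and -0.03 in replicate 6 (mean -0.44 ± 0.15). Both genes were below 0 on all 6 arrays. With loess within blocks, the mean of Polr3f was -0.15. Its oligo lay in the same print block as those of Zfp617, Pias2, Slc7a5 and Rab2b, named below. Their means were -0.060, -0.19, -0.19 and -0.45 in that setting. Over the 10 lower genes, the mean was -0.35 in that setting and -0.45 without it. The part of the position on the array was not tested. Snap25, a core protein of synaptic vesicle fusion, was below 0 on 5 of 6 arrays, at -1.06 and -0.54 in replicate 4, -0.78 and -0.02 in replicate 5, and -0.50 and 0.30 in replicate 6. The mean of Snap25 was -0.43 ± 0.14 (unadjusted p = 0.00835, adjusted p = 0.747). The forkhead factor gene Foxj2 had the lowest mean of the group (-0.57 ± 0.20), and its replicates stood at -1.44, -0.13 and -0.13.

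Etnk1, a kinase of phosphatidylethanolamine synthesis, read -2.07 on 1 array of replicate 4 and between -0.32 and 0.07 on the other 5. Sipa1l3, a gene of cell polarity, stood at -1.11, -0.40 and near 0 in replicates 4, 5 and 6. Reep5, which shapes the tubular endoplasmic reticulum, was lowest on the array of replicate 4 with tumour RNA in Cy3 (-1.57). The remaining 3 genes were Nbdy, a microprotein gene of mRNA decapping, with a mean of -0.44, the zinc finger gene Zfp617 (-0.40) and the ubiquitin ligase gene Rffl (-0.39). Of these 10 genes, 9 were below 0 on at least 5 arrays.

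**Figure D1:**
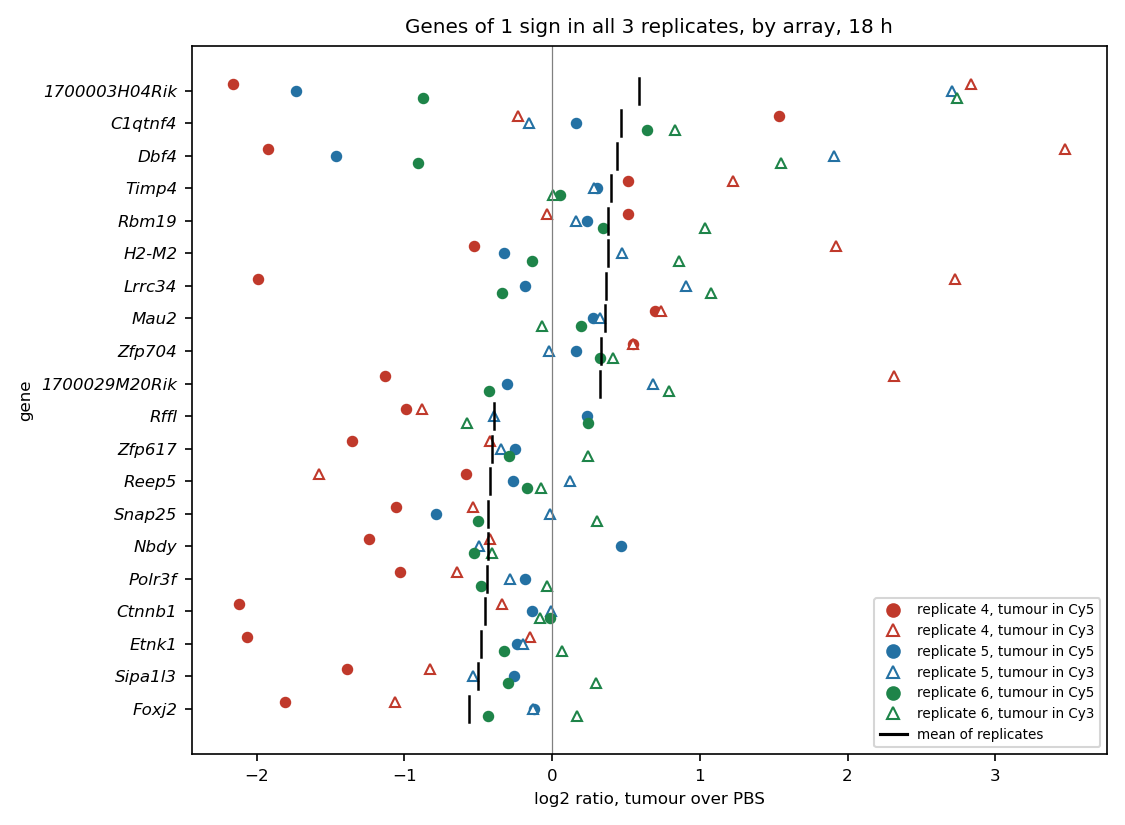
Log2 ratio of tumour over PBS on each of the 6 arrays for the 20 genes with the largest means among those of 1 sign in all 3 replicates. Colour marks the replicate, filled circles are arrays with tumour RNA in Cy5, open triangles arrays with tumour RNA in Cy3, and the bar is the mean of the replicates. The 5 genes with circles left of 0 and triangles right of 0 are those with opposite signs in every swap, and the red points of replicate 4 lie farthest left among the lower genes.

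Genes with 1 sign on all 6 arrays were few, and they were singled out after their values had been seen. There were 35 among the 1099 oligos (3.18%), a share close to that of unrelated signs. Of the 35, 8 were above 0 and 27 below. Beside Timp4, the higher ones were Cyp2c65, a cytochrome P450 gene (0.27), H2-Q2, a class I major histocompatibility gene (0.26), Cox7b2 (0.25), Prr29 (0.23), Fibp (0.23), Noct, a clock-controlled phosphatase gene (0.11) and Tmem116 (0.11). The array values of H2-Q2 were 0.24 and 0.13 in replicate 4, 0.30 and 0.63 in replicate 5, and 0.04 and 0.21 in replicate 6.

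Among the 27 lower ones, the most negative after Ctnnb1 and Polr3f was Ywhag, which encodes the gamma member of the 14-3-3 adaptor proteins (-0.36). It was followed by Shkbp1 (-0.35) and by Pias2, a SUMO ligase gene that acts on STAT factors (-0.34). This Pias2 oligo read -0.65 and -0.31 in replicate 4, -0.28 and -0.29 in replicate 5, and -0.39 and -0.13 in replicate 6 (SE 0.12, unadjusted p = 0.0101, adjusted p = 0.747). Its mean was -0.19 with loess within blocks. A second oligo of Pias2 had the opposite sign, at 0.35, 0.67 and -0.30 in replicates 4, 5 and 6 (mean 0.24 ± 0.16, unadjusted p = 0.15), so the oligos of this gene disagreed. The same sign on every array was also shown by Elk1, a transcription factor that acts with serum response factor (-0.24), and by Hrh1, the histamine H1 receptor (-0.16). Syt4, a synaptotagmin of dense-core vesicles, stood at -0.16, and Pfkl, a phosphofructokinase of glycolysis, at -0.21. The unadjusted intervals of Ywhag (-0.66 to -0.058) and Shkbp1 (-0.61 to -0.090) lay wholly on the negative side. So did that of the Pias2 oligo of smaller p (-0.59 to -0.094). The same held for Fam83d (mean -0.33, interval -0.59 to -0.081), Tex44 (-0.28, -0.54 to -0.026) and Cyria (-0.25, -0.50 to -0.0067). Those of Elk1 (-0.49 to 0.0068), Hrh1 (-0.40 to 0.072), Syt4 (-0.40 to 0.085) and Pfkl (-0.45 to 0.034) reached positive values. After adjustment none of these genes was called.

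The genes of smallest p had mostly been measured in only a pair of replicates. Ptov1, a gene linked to prostate tumours and the cell cycle, read 1.46 and 0.52 in replicate 4 and 0.40 and 0.51 in replicate 6, all above 0 (mean 0.72 ± 0.16, SE, n = 2, unadjusted p = 0.000365, adjusted p = 0.747). Mitd1, which acts at the end of cell division, read 0.13 and 0.60 in replicate 5 and 0.30 and 1.53 in replicate 6. Ndufb4, a subunit of respiratory complex I, read 1.19 and 0.38 in replicate 5 and 0.31 and 0.24 in replicate 6, and the single usable array of replicate 4 gave 0.30. A second oligo of Ndufb4 had a mean of 0.01 (-0.05 and 0.08 in replicates 5 and 6). Hmbox1, a homeobox gene, and the calpain gene Capn12 had no pair of values in replicate 6 and were above 0 on all 4 of their arrays (0.23 to 0.92 and 0.25 to 0.66). Ropn1l, known from sperm and ciliated cells, was above 0 only with tumour RNA in Cy3 (0.74 and 1.47, against -0.09 and -0.08).

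Among the 8 lower genes of smallest p, Nkx6-3, a homeobox factor of gut and nervous system, read -0.60 and -1.41 in replicate 4, -0.45 on both arrays of replicate 6, and 0.02 on the single array of replicate 5 (mean -0.72 ± 0.17, SE, n = 2, unadjusted p = 0.000819, adjusted p = 0.747). Dlx3, a homeobox factor, was below 0 on its 4 arrays (-0.64, -0.85, -0.36 and -0.45), and so was Nin, a centrosomal anchor of microtubules (-0.90, -0.91, -0.59 and -0.26). Dnajb4, a chaperone of the heat shock protein 40 family, and Arid5b, a DNA-binding factor, each owed their size to the array of replicate 4 with tumour RNA in Cy3, which read -2.72 and -2.24. Their other arrays lay between -0.39 and 0.07. Ppp3cb, a catalytic subunit of calcineurin, read -1.23 on that same array and -0.43, -0.25 and -0.22 on the others. Fbxl20, a ubiquitin ligase subunit, read -1.25 there, -0.18 on the other array of replicate 4, and 0.34 on the single array of replicate 5. Rab2b, a vesicle GTPase, had its lowest value in replicate 6 (-0.84), and its single array of replicate 4 read 0.27.

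**Figure D2:**
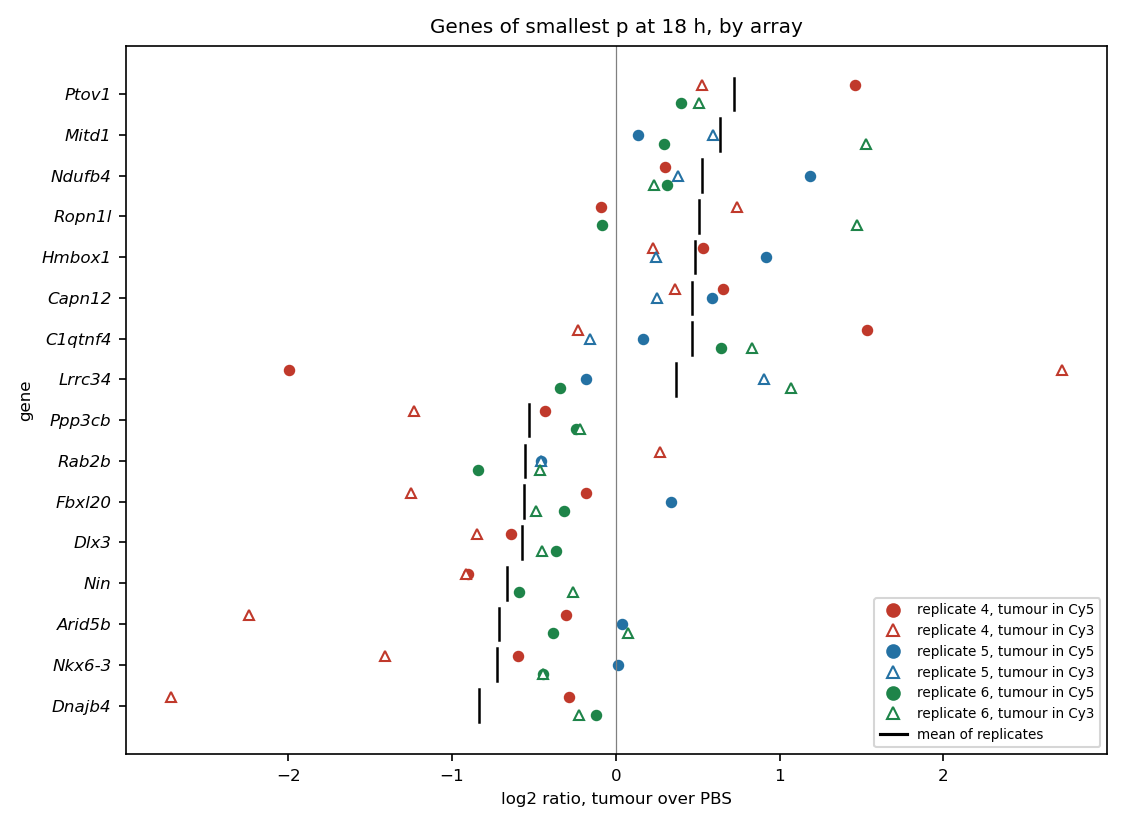
Log2 ratio of tumour over PBS by array for the 8 higher and 8 lower genes of smallest p at 18 h. Symbols are as for the genes of 1 sign, and missing symbols are arrays without a usable spot. Ptov1, Mitd1, Ndufb4, Hmbox1 and Capn12 lie wholly right of 0, and Dlx3, Nin, Dnajb4 and Ppp3cb wholly left. The red triangles of Dnajb4 and Arid5b lie at -2.72 and -2.24.

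The replicates shared little of their pattern as tumour over PBS and more of it as a dye component. Across oligos, the tumour over PBS values correlated at 0.08 between replicates 4 and 5, -0.13 between 4 and 6, and 0.09 between 5 and 6 (1221, 2382 and 2037 oligos). Genes are not independent replicates, and these correlations are descriptions. Both arrays of a swap, each read as tumour over PBS, correlated at -0.50 in replicate 4, -0.21 in replicate 5 and -0.27 in replicate 6. The dye component is the difference between both arrays of a swap divided by 2 and holds what follows the dye and not the labelled sample. It correlated at 0.54, 0.64 and 0.47 between the same pairs of replicates, and at 0.40 to 0.66 with the replicates of 72 h, against 0.01 to 0.36 with those of 192 h. If both arrays of a swap had carried tumour RNA in the same dye, a tumour difference would lie in this component, and from these arrays a dye effect and such a difference cannot be told apart.

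Tested by limma against 0, the dye component passed an adjusted p of 0.05 for 44 of 3442 oligos (1.28%). All 44 were below 0, that is, brighter in channel A on average over the arrays of the swaps. The chromatin gene Rbbp5 led (dye component -2.50, adjusted p = 0.000631), followed by 1700003H04Rik (-2.17, adjusted p = 0.00162). Dbf4 and the activity-regulated receptor gene Nr4a3 were among the 44. Of the 44, 9 also stood higher at an unadjusted p under 0.05 in tumour over PBS, and none stood lower. The dye component was larger in replicate 4 (SD over oligos 0.610) than in replicate 5 (0.264) and replicate 6 (0.291).

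**Figure D3:**
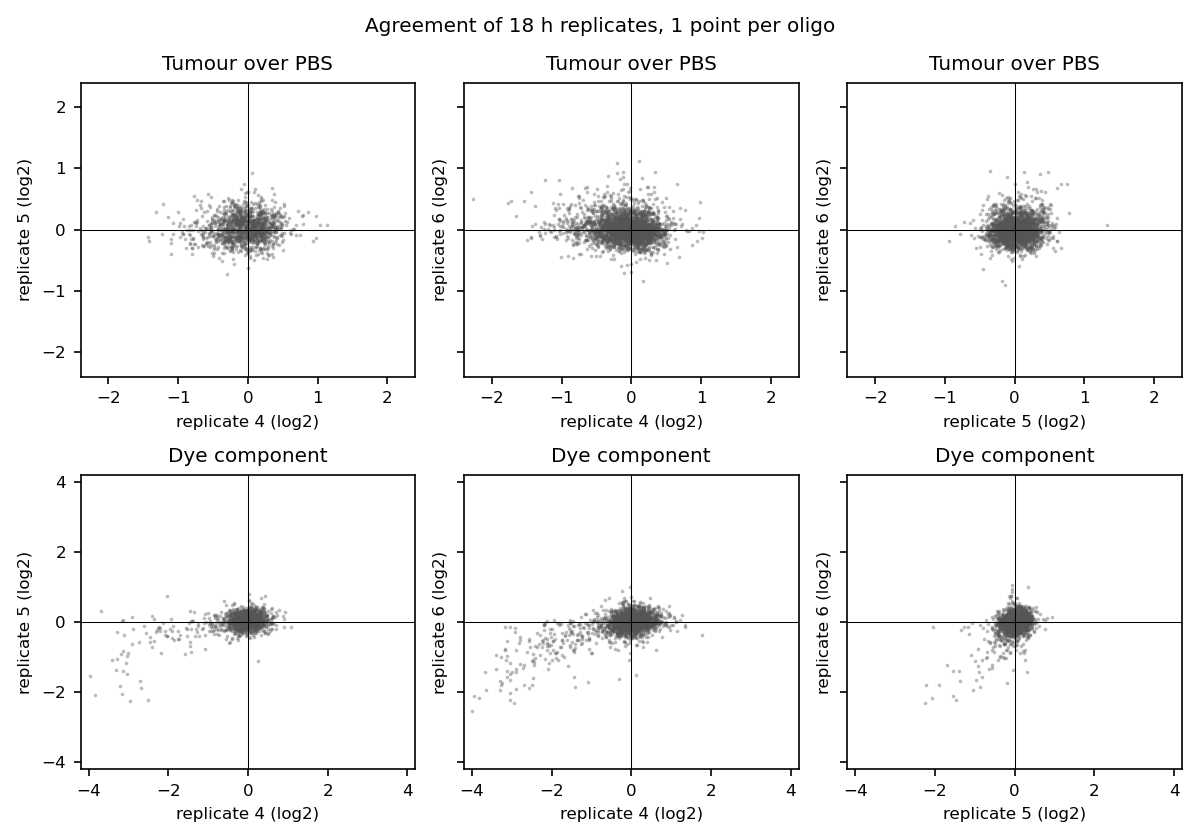
Values of pairs of 18 h replicates, 1 point per oligo, on log2 axes: above, tumour over PBS (r 0.08, -0.13 and 0.09), and below, the dye component (r 0.54, 0.64 and 0.47). The tumour over PBS clouds are centred near 0 with no shared slope, whereas a tail of oligos is below 0 in the dye component of every replicate.

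Gene lists were described by their counts and medians, with no test over a list. Of the 32 lists with at least 5 measured genes, 0 had a member called by limma. The blood cell genes are given below as markers of another tissue, and of the other 31 lists 27 had medians within 0.1 of 0. In 3 of these 31 lists, the neuropeptides, the heat shock proteins and the NF-kB list, the median kept its sign under every alternative that gave a value. The median over all oligos tested was -0.01. In 21 lists the median was lowest in replicate 4, and it was below 0 there in 24. Only 7 lists had medians of 1 sign in all 3 replicates. Over all oligos, 43.8% were above 0 in replicate 4, 55.6% in replicate 5 and 53.4% in replicate 6.

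**Figure D4:**
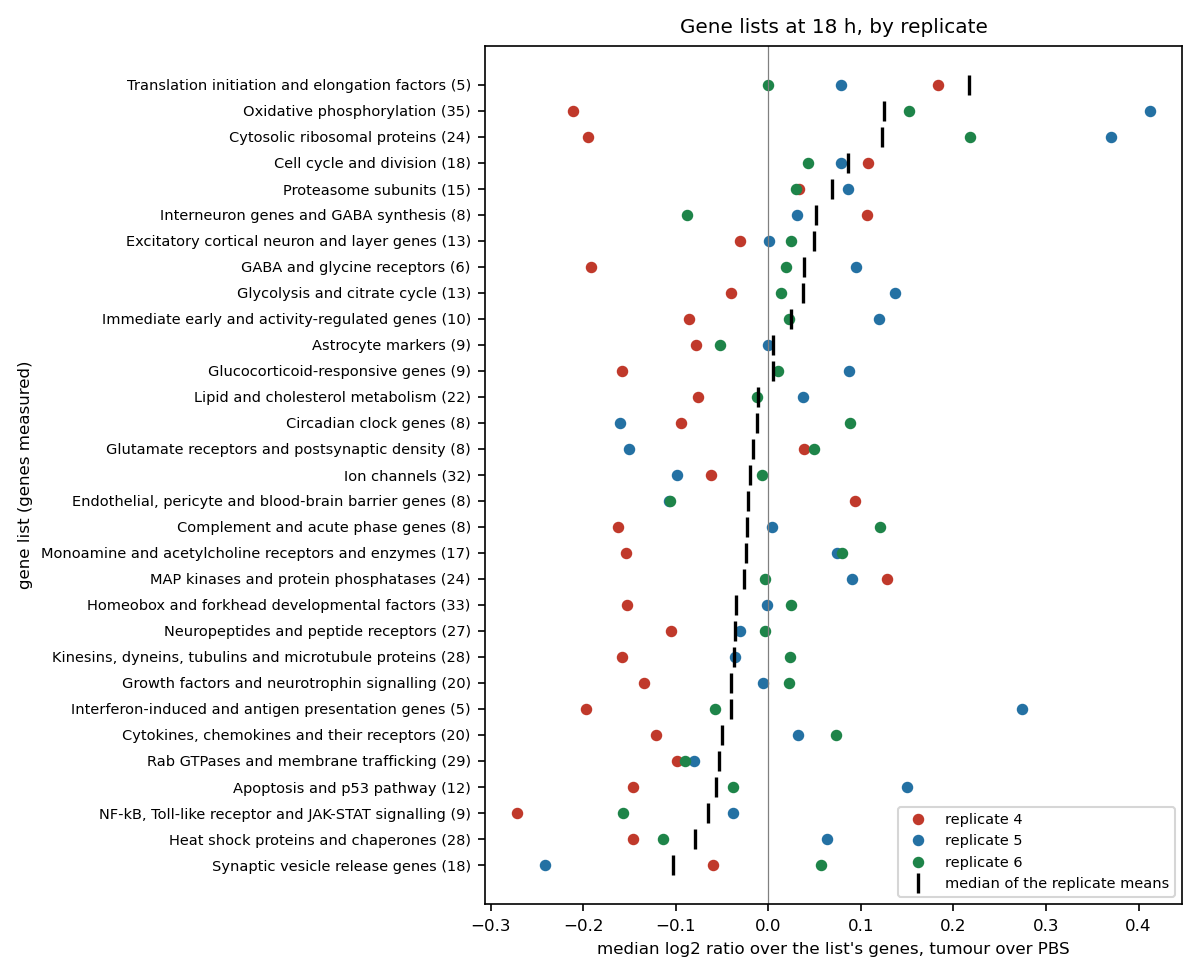
Median log2 ratio of tumour over PBS for 31 gene lists at 18 h, with the number of measured genes in brackets. Coloured points are the medians within replicates 4, 5 and 6, and the black bar is the median over the genes' means, which need not lie between them because the replicates hold different genes. The black bars run from -0.10 to 0.22, and replicate 4 is the lowest of the replicates in 21 lists.

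The measured genes through which a peripheral signal is known to be read in the brain showed no common shift, and many were not measured. Of 19 glucocorticoid-responsive genes with an oligo, 9 were measured. Of these 9, 5 were above 0 and 4 below, none at an unadjusted p under 0.05, with means from -0.15 to 0.12. Fkbp5, a co-chaperone of the glucocorticoid receptor, stood at 0.04 in replicate 5 and 0.16 in replicate 6, and Zbtb16, a glucocorticoid-induced zinc finger factor, at 0.09 and 0.15. Klf9, a further target, was measured in all 3 replicates at 0.06, -0.05 and 0.01. For cytokines, chemokines and their receptors, 20 of 83 genes with an oligo were measured. Of these 20, 8 were above 0 and 12 below, and 1 stood lower at an unadjusted p under 0.05. This was Csf2ra, the alpha chain of the receptor for granulocyte-macrophage colony-stimulating factor (-0.76, -0.23 and -0.07 in replicates 4, 5 and 6, mean -0.35 ± 0.14).

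Ccl4, a chemokine of macrophages, disagreed in sign between replicates 4 and 6 (-1.08 and 0.33). Ifng, which encodes interferon gamma, was above 0 on its 4 arrays (0.27 and 0.05 in replicate 4, 0.52 and 0.40 in replicate 6, mean 0.31 ± 0.15, SE, n = 2, unadjusted p = 0.0553). Of 9 genes of NF-kB, Toll-like receptor and JAK-STAT signalling, 6 were below 0, among them the Pias2 oligo of smaller p, whose second oligo was above 0, and the STAT inhibitor Socs5 (-0.18 and -0.23 in replicates 5 and 6). The list median was below 0 in all 3 replicates (-0.27, -0.04 and -0.16). Interferon-induced and antigen presentation genes were measured for 5 members only. Isg15, a ubiquitin-like protein induced by interferon, stood at -0.05, 0.26 and -0.16, and Irf3, a factor that induces interferon, at -0.59 in replicate 4 and near 0 in replicate 6. Among 8 complement and acute phase genes the means ran from -0.33 for Cp, the copper carrier ceruloplasmin, to 0.27 for Crp, the C-reactive protein gene, and none had an unadjusted p under 0.05.

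Activity-regulated genes differed most in Nr4a3, Nptx2 and Fos. Nr4a3, an orphan nuclear receptor induced by activity, stood at 0.31 in replicate 5 and 0.51 in replicate 6 (unadjusted p = 0.0177, adjusted p = 0.747). Its arrays with tumour RNA in Cy5 read -1.25 and -0.90 and those with tumour RNA in Cy3 read 1.86 and 1.92, and its dye component was called (-1.48, adjusted p = 0.00926). Fos stood at -1.31 in replicate 4, where 1 array read -2.64 and the other 0.01, at 0.28 in replicate 5 and at -0.11 in replicate 6. Nptx2, a secreted synaptic pentraxin, read 0.53 and -2.15 on the arrays of replicate 4 and -0.05 and 0.11 on those of replicate 6. Fosb, Egr3, Bdnf and Fosl2 had means between 0.02 and 0.07.

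Genes of glia, vessels and blood were sparsely measured. Of 9 astrocyte markers, 5 were above 0 and 4 below. Sox9, a factor of the astrocyte lineage, stood at -0.66 in replicate 4 and -0.16 in replicate 6 (mean -0.41 ± 0.15, SE, n = 2, unadjusted p = 0.0166), and its arrays of replicate 6 read -0.72 and 0.39. The astrocyte glutamate transporter gene Slc1a3 stood at 0.12 and 0.13 in replicates 4 and 6. Among 8 genes of vessels and the blood-brain barrier, 2 were above 0 and 6 below. Slc7a5, which carries large amino acids across the barrier, was below 0 in every replicate (-0.37, -0.52 and -0.11, mean -0.33 ± 0.12, unadjusted p = 0.0175). Its arrays read -1.29 and 0.54 in replicate 4, -0.67 and -0.37 in replicate 5, and -0.33 and 0.11 in replicate 6. The mean of Slc7a5 was -0.19 with loess within blocks. Sele, the endothelial selectin gene induced by inflammation, stood at 0.14, 0.15 and 0.05. Microglia and macrophage markers were measured for 4 of 22 genes with an oligo, with a median of 0.08. Of these, the complement gene C1qb stood at 0.30 and 0.11 in replicates 4 and 6, and C1qa at -0.16 and 0.08. The 5 blood cell genes measured had means from -0.26 for Cd79a to 0.26 for Cd79b, both B cell receptor genes.

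Neuronal identity genes lay close to 0. The means of 13 genes of excitatory cortical neurons and layers ran from -0.20 for the deep-layer factor Fezf2 to 0.27 for Nrgn, a calmodulin-binding postsynaptic protein, with a median of 0.05. This median was below 0 under 7 of 17 alternatives, among them the fit without replicate 4 (-0.039), the authors' log ratios (-0.024) and median centring (-0.14). The 8 interneuron and GABA synthesis genes ran from -0.04 to 0.15. The vesicular GABA transporter gene Slc32a1 disagreed between replicates (0.34, -0.40 and 0.50). Among 27 neuropeptides and peptide receptors, 10 were above 0 and 17 below, none at an unadjusted p under 0.05. The melanocortin receptor gene Mc4r, known from the control of appetite, stood at 0.50 in replicate 5 and -0.04 in replicate 6. Oprl1, the nociceptin receptor gene, stood at -0.42 and -0.19 in replicates 4 and 6 and was below 0 on its 4 arrays. Of 17 genes of monoamine and acetylcholine receptors and enzymes, 7 were above 0 and 10 below, and the histamine receptor gene Hrh1 was even, at -0.18, -0.16 and -0.15 in the 3 replicates.

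Synaptic vesicle release genes had the lowest median of the 31 lists (-0.10), with 7 members above 0 and 11 below, 3 of them at an unadjusted p under 0.05. The median was -0.26 with median centring and 0.00015 with tumour RNA in Cy3 alone. Besides Snap25, Dnajc5, a vesicle chaperone, and Sv2a, a vesicle glycoprotein, had the most negative means (both -0.54). Dnajc5 stood at -1.11 in replicate 4 and 0.04 in replicate 6, and Sv2a at -1.02 and -0.07, so of the replicates measured both were low in replicate 4 and near 0 in replicate 6. Syn1 and Dnm1, which act in vesicle clustering and endocytosis, were below 0 in replicate 5 (-0.46 and -0.47) and above 0 in replicate 6 (0.39 and 0.32). In replicate 5 only 1 of 10 measured members was above 0, against 12 of 18 in replicate 6. The list thus had medians of -0.06, -0.24 and 0.06 in replicates 4, 5 and 6.

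Genes of respiration and protein synthesis split by replicate. Of 35 oxidative phosphorylation genes, 24 had a mean above 0, with 5 of 25 above 0 in replicate 4, 19 of 20 in replicate 5 and 30 of 35 in replicate 6. Of 24 cytosolic ribosomal protein genes, 19 had a mean above 0, with 2 of 19 in replicate 4, 18 of 20 in replicate 5 and 22 of 23 in replicate 6. Rps16 of the small subunit stood at -0.27, 0.48 and 0.34, and Rpl34 of the large subunit at -0.26, 0.39 and 0.41. Cox5b, a subunit of cytochrome oxidase, stood at -0.73, 0.48 and 0.38. The 6 genes of these lists that stood higher at an unadjusted p under 0.05, Ndufb4, Ndufc1, Atp5k, Ndufs4, Rpl8 and Rps7, had no value in replicate 4. The median over the genes' means was 0.13 for oxidative phosphorylation and 0.12 for the ribosomal proteins, and with median centring both were below 0 (-0.18 and -0.14).

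The medians of these lists also differed between the arrays of a swap. For the ribosomal protein genes, the array with tumour RNA in Cy5 was the higher of the pair in every replicate (0.10 against -0.38, 0.60 against 0.07, and 0.34 against 0.05). For oxidative phosphorylation the order was the same (0.09 against -0.35, 0.55 against 0.19, and 0.31 against 0.05). The median dye component was 0.24 and 0.17. With tumour RNA in Cy3 alone, the medians over the means were -0.039 for oxidative phosphorylation and -0.079 for the ribosomal proteins, and without replicate 5 that of oxidative phosphorylation was -0.02. The part of the dye in these medians was not tested.

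Cell division genes were among the few lists with medians above 0 in every replicate (0.11, 0.08 and 0.04). The median over the means was 0.086, against -0.0073 with the authors' log ratios and -0.0097 without replicate 6. Of 18 members, 11 were above 0 and 7 below, and 3 stood higher at an unadjusted p under 0.05. These were Mitd1, Bub1b, a kinase of the spindle checkpoint (0.44 and 0.45 in replicates 4 and 6), and Orc6, a subunit of the origin recognition complex (0.38 and 0.42 in replicates 5 and 6). Top2a, the topoisomerase of dividing cells, stood at 0.20, 0.08 and 0.08. Cdk9, a kinase of transcription elongation, stood at -0.83, -0.09 and 0.16. Proteasome subunits also had medians above 0 throughout (0.03, 0.09 and 0.03), with 9 of 15 members above 0 and none at an unadjusted p under 0.05. Their median over the means was 0.068, against -0.021 without replicate 5, -0.063 with median centring and -0.045 with tumour RNA in Cy3 alone. Rab GTPases and membrane trafficking genes had medians below 0 in all 3 replicates (-0.10, -0.08 and -0.09), with 10 of 29 members above 0 and 2 lower at an unadjusted p under 0.05. Their median over the means was -0.054, against 0.0065 with arrays as observations and -0.15 without replicate 6.

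**Figure D5:**
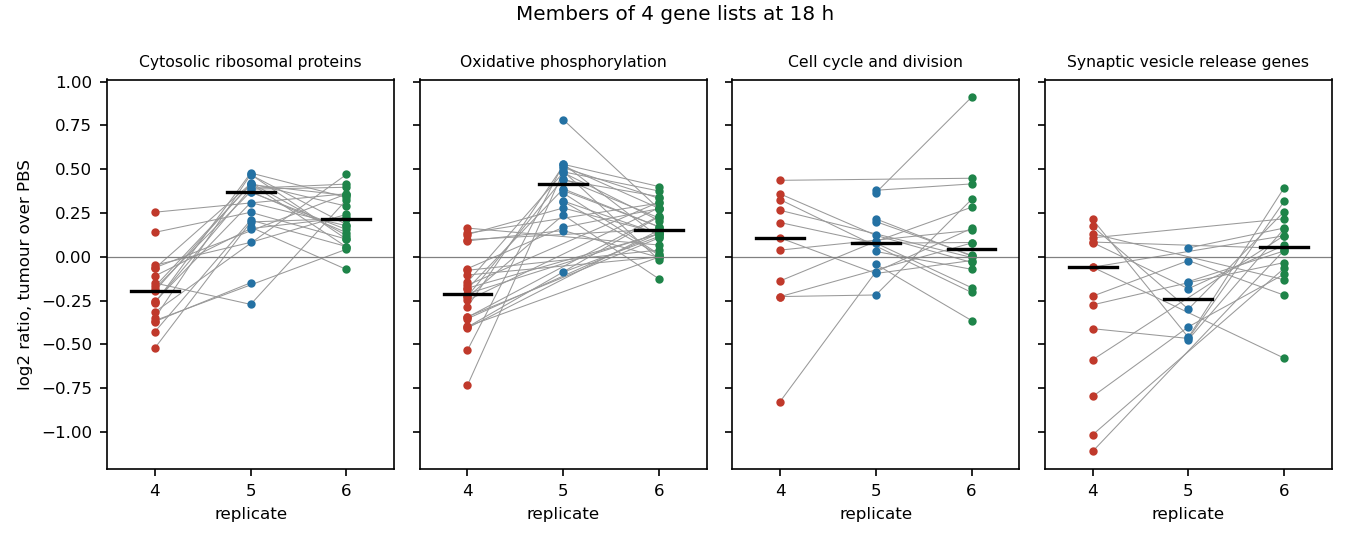
Log2 ratio of tumour over PBS for the measured genes of 4 lists in replicates 4, 5 and 6, with lines joining the values of 1 gene and black bars at the medians. The ribosomal and oxidative phosphorylation medians are below 0 in replicate 4 (-0.19 and -0.21) and above 0 in replicates 5 and 6, the cell division medians are above 0 in each, and the synaptic vesicle median is lowest in replicate 5 (-0.24).

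Among the other lists, heat shock proteins and chaperones had 8 of 28 members above 0 and medians of -0.15, 0.06 and -0.11 in replicates 4, 5 and 6. Hsp90aa1, the stress-induced chaperone of many kinases and receptors, stood at -0.40, 0.06 and -0.06. Ion channels had 13 of 32 members above 0. Of these, the potassium channel subunit gene Kcne1 was lowest (-0.74 and -0.16 in replicates 4 and 6) and the channel partner gene Kcnip1 highest, at 0.97, -0.14 and 0.20 with opposite array values of -0.92 and 2.87 in replicate 4. The 8 clock genes had means from -0.13 for Clock to 0.11 for Per2. The 5 translation factors had means above 0, up to 0.28 for Etf1, the termination factor that reads stop codons. Their median over the means, 0.22, was the highest of the 31, and it became -0.034 with median centring and -0.019 with arrays as observations, where 17 of these genes were measured. Within replicates 4, 5 and 6 their medians were 0.18, 0.08 and -0.00067, and 2 of 5 were above 0 in replicate 6. Homeobox and forkhead factors had 16 members above 0 and 17 below, and an unadjusted p under 0.05 was reached by 2 of the former and 3 of the latter.

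Values at 18 h were then set against the later times in the same fit. Against 72 h, limma called 0 of 2061 oligos with at least 2 values at both times (0%), with 77 at an unadjusted p under 0.05 and a smallest adjusted p of 0.936. Against 192 h it called 0 of 1610 (0%), with 114 at an unadjusted p under 0.05 and a smallest adjusted p of 0.637. The genes named by size or by p were chosen by their 18 h values, so their differences are given as a description. Ptov1 stood at 0.72 at 18 h, 0.01 at 72 h and -0.11 at 192 h. Snap25 stood at -0.43 at 18 h and 0.03 at 72 h, and Timp4 at 0.40 and 0.08. Ctnnb1 stood at -0.45, 0.18 and -0.05 in that order of times, and Arid5b at -0.71, 0.01 and 0.44. At 72 h the 8 higher and 8 lower genes of smallest p lay between -0.20 and 0.14, where measured.

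With 72 h replicate 4 left out, 1 oligo differed between 18 h and 72 h, for the RNA polymerase III gene Polr3gl (18 h minus 72 h 2.33, adjusted p = 0.0195). With 192 h replicate 3 left out, 4 differed between 18 h and 192 h, and Polr3gl was 1 of them with the opposite sign (-1.82). The others were Kif5a, a neuronal kinesin (-2.01), Dpysl2, a protein of axon growth (-1.94), and 4930431F12Rik (-1.88). In each case the later time was then 1 replicate, which was assumed to vary like the rest, and these genes were named after their values had been seen.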

How the data were processed

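The deposited scanner tables hold 3 scans of 10080 spots in 48 blocks per array. Per the file headers, the intensity of each spot in channels A and B is background-subtracted, and a further deposited fraction is the share of unsaturated pixels. The authors' processed log ratios are treated as a score, because their log base and normalization are not stated; their medians at 18 h lay between -0.00637 and 0.00253. The sources used here do not name the image analysis program. Channel B was read as Cy5, because the authors' values correlated with B over A on the arrays with tumour RNA in Cy5 (r 0.465 to 0.753 at 18 h) and against it on the others (r -0.755 to -0.464). This takes the authors' values as tumour over PBS. Values of PBS over tumour with channel B as Cy3 would give the same signs, so these correlations cannot settle the direction.

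Spots marked good in both channels, with at least 0.9 of pixels unsaturated, entered the log2 ratio. Each scan was corrected by loess (span 0.3), scans were averaged, arrays with tumour RNA in Cy3 were sign-turned, and spots of 1 accession were averaged to an oligo. Genes were named through the platform annotation, and 8909 of 8997 accessions with 1 gene matched a gene number of the GRCm38.p6 table. The 7 total RNA swap replicates (3 at 18 h, 2 at 72 h, 2 at 192 h) entered 1 fit over all oligos by lmFit and eBayes of limma 3.58.1 (R 4.3.3), with 1 coefficient per time, with Benjamini-Hochberg adjustment over the oligos tested and two-sided p-values. The fit was tested on simulated data. The 9 arrays of poly A RNA were left out, because they are not labelled as dye swaps. The number of arrays limits the precision.

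Genes were named as follows: the 10 highest and 10 lowest means among oligos of 1 sign in all 3 replicates, the 8 smallest p in each direction, and the members of smallest p in each list (2 or 1 per direction). A gene with several oligos entered a list by the oligo with the most replicate values, then the smallest p. Other list members are given as examples chosen after their values were seen. The members, lists, tests and alternatives were chosen with earlier results of these data known. One gene that is no interneuron gene, Maf1, was taken off the interneuron list after the values had been seen. Alternatives changed the normalization, background, filters, scans, fit and arrays used, and left out each replicate in turn.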

Additional observations from a re-analysis of the deposited data

How the results depend on the processing

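Limma called 0 oligos at 18 h with loess within blocks, normexp, no filter on saturation or on spot marks, the first scan alone, the authors' log ratios, the dimmest oligos left out, values in all 3 replicates, the 18 h replicates alone, trend and robust settings, arrays as observations with a dye term, arrays with tumour RNA in Cy5 alone, and each replicate left out. Median centring gave 8 calls, and taking just the arrays with tumour RNA in Cy3 gave 63. The 79 oligos higher at an unadjusted p under 0.05 became 50 with the first scan alone, 24 with values in all 3 replicates, 51 with the 18 h replicates alone, 45 with trend and robust settings, 266 with arrays as observations, 301 with tumour RNA in Cy5 alone and 300 in Cy3 alone, and 44 to 62 with 1 replicate left out. The 135 lower ones became 283 with median centring, 88 with loess within blocks, 80 with the authors' log ratios, 39 with values in all 3 replicates, 46 with the 18 h replicates alone, 369 with tumour RNA in Cy5 alone, and 22 (without replicate 4) to 127 with 1 replicate left out. Values in all 3 replicates, the first scan and left-out replicates leave fewer oligos tested, and arrays taken singly leave more. For the other settings the cause was not tested. The dye component was called for 18 oligos with loess within blocks and for 13 (without replicate 6) to 63 with 1 replicate left out. Calls against 72 h were 0 to 1, and against 192 h 0 to 4, with 1 replicate left out.

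Of the 108 genes followed through the alternatives, these had a log2 ratio of opposite sign. Tumour RNA in Cy3 alone gave Fos 0.23, Ccl4 1.01, Socs5 0.053, Isg15 -0.17, C1qb -0.048, Slc1a3 -0.042, Slc7a5 0.093, Clock 0.0018, Rps16 -0.089, Dnm1 0.096, Cox5b -0.45, Neurod6 0.0072, Sv2a 0.31, Tbr1 -0.070, Bdnf -0.021. Tumour RNA in Cy5 alone gave 1700003H04Rik -1.59, Dbf4 -1.43, H2-M2 -0.33, Lrrc34 -0.84, 1700029M20Rik -0.62, Ropn1l -0.086, Zbtb16 -0.059, Nr4a3 -1.07, Nptx2 0.18, Slc32a1 -0.22, Kcnip1 -0.72, Rbbp5 -2.08, Hsp90aa1 0.012, Fosb -0.39, Syn1 -0.038, Egr3 -0.075, Klf9 -0.071, Dpysl2 -0.0059, C1qa 0.076, Fosl2 -0.085. The first scan alone gave Isg15 -0.040, Slc32a1 -0.00058, Syn1 -0.010, Egr3 -0.034, Tbr1 -0.032, Kif5a 0.053. Loess within blocks gave Isg15 -0.022, Fosb -0.15, Syn1 -0.025, Polr3gl 0.040, C1qa 0.13, Fosl2 -0.0053. Median centring gave Nr4a3 -0.0077, Slc1a3 -0.18, Nrgn -0.17, Slc32a1 -0.083, Rps16 -0.033, Fosb -0.011, Syn1 -0.18, Cox5b -0.12, Klf9 -0.17, Rps7 -0.025, Polr3gl 0.27, C1qa 0.097. Normexp gave Fosb -0.037, Cox5b -0.28, Klf9 -0.030, Fosl2 -0.068. The authors' log ratios gave Zfp617 0.032, Fkbp5 -0.0066, Isg15 -0.014, Slc1a3 -0.058, Sele -0.0058, Dnm1 0.14, Fosb -0.082, Syn1 -0.024, Egr3 -0.029. With 1 replicate left out in turn, the sign changed within the range of Fos from -0.71 to 0.086, Isg15 from -0.11 to 0.11, Slc32a1 from -0.026 to 0.42, Cdk9 from -0.46 to 0.038, Syn1 from -0.12 to 0.30, Cox5b from -0.18 to 0.43, Egr3 from -0.045 to 0.15, Neurod6 from -0.038 to 0.0051, Klf9 from -0.020 to 0.033.

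The median of a gene list changed sign under at least 1 alternative in 28 of 31 lists. Over the alternatives, the median ran from -0.0097 to 0.16 for cell division genes, from -0.14 to 0.060 for excitatory neuron genes, from -0.034 to 0.29 for translation factors, from -0.063 to 0.10 for proteasome subunits, from -0.26 to 0.00015 for synaptic vesicle genes, from -0.15 to 0.0065 for Rab GTPases, from -0.18 to 0.28 for oxidative phosphorylation, from -0.14 to 0.33 for ribosomal proteins. No paired analysis was possible because 18 h shares only replicate number 4 with 72 h and with 192 h, and each replicate is already a ratio within arrays. Signal over background limited the comparison through the spots used: 2331 to 6325 oligos had a replicate value, and 1099 had all 3.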
